A study of Mus musculus with 6 samples.

Results

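The keratin genes of basal epidermis and of wounded or cultured epidermis, *Krt5*, *Krt14*, *Krt15*, *Krt6a*, *Krt6b*, *Krt16* and *Krt17*, were followed in primary mouse keratinocytes with and without deletion of iASPP. They were chosen by name, and all 7 were found among the 55367 gene names of the count table. RNA was sequenced from epidermal cells of newborn pups in 6 libraries, 3 of iASPP KO and 3 of iASPP WT. Each of 3 batches of cells was divided between the conditions, which gave 3 same-batch pairs. Cells of both conditions carried the genotype Ppp1r13lflox/flox;Cre+ERT on a mixed C57BL/6 and 129/Sv background, in which exon 8 of *Ppp1r13l*, the gene encoding iASPP, lies between loxP sites. The Cre recombinase sits at the ROSA26 locus, which is active in most cell types, and is therefore not specific to keratinocytes. The iASPP-KO cultures were given tamoxifen when the medium was replaced after 24 h, and the iASPP-WT cultures were given none. Drug and deletion therefore cannot be told apart. The unit of the tamoxifen concentration differs between the sample labels and the study's methods, so none is given here. The sources do not state how many pups made up a batch. Each p-value covers only these 3 pairs, and its estimate of spread also borrows from other genes.

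Keratins form the intermediate filaments of epithelial cells as pairs of a type I and a type II protein. In the basal layer of the epidermis the type II keratin K5 pairs with the type I keratin K14, and K15 is a further type I keratin of basal and hair follicle cells. After wounding, and when keratinocytes are placed in culture, K6a and K6b (type II) and K16 and K17 (type I) are produced as well, and this group is widely used as a sign of the activated state of the keratinocyte.

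All 7 genes lie on the minus strand, in the 2 keratin clusters of the mouse genome (GRCm38, also called mm10). The type I genes *Krt15*, *Krt14*, *Krt16* and *Krt17* lie on chromosome 11 between 100131758 and 100261029. The type II genes *Krt6b*, *Krt6a* and *Krt5* lie on chromosome 15 between 101676023 and 101712898, a stretch of 36.9 kb. Reads were single and 42 bases long, and reads that align to several places were not counted. Stretches of 45 coding bases, taken from GENCODE vM21 transcripts, are shown because they decide how well the paralogs can be counted apart. In exon 1 the type II genes have the same 45 bases, at chr15:101712313-101712357 in *Krt5*, chr15:101693781-101693825 in *Krt6a* and chr15:101679756-101679800 in *Krt6b*, so a read of 42 bases within them fits all 3 genes:
Krt5, Krt6a and Krt6b: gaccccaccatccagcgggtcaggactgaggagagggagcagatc
The type I genes nearly share a stretch of exon 1, at chr11:100260663-100260707 in *Krt17*, chr11:100207042-100207086 in *Krt14*, chr11:100248501-100248545 in *Krt16* and chr11:100135514-100135558 in *Krt15*. Capitals mark bases that differ from *Krt17*:
Krt17: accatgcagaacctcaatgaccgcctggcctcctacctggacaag
Krt14 and Krt16: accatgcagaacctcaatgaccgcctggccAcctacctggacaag
Krt15: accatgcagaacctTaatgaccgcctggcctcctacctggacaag
*Krt6a* and *Krt6b* are the closest pair, with 97.6% identity over their coding sequences. They can be told apart by stretches such as one in exon 4, at chr15:101692484-101692528 in *Krt6a* and chr15:101678303-101678347 in *Krt6b*, where 10 of 45 bases differ and are in capitals:
Krt6a: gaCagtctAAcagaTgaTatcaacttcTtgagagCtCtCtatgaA
Krt6b: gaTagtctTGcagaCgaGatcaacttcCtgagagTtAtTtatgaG

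Over whole transcripts, 51.8% of the 42-base windows of *Krt6a* and 52.8% of those of *Krt6b* also occur in a transcript of another gene. The share was 42.8% for *Krt16*, whose coding sequence has 83.4% identity with that of *Krt14*, and 19.6% for *Krt14*. It was 9.51% for *Krt5*, 7.55% for *Krt17* and 1.63% for *Krt15*. Counts of *Krt6a*, *Krt6b* and *Krt16* thus come from the remaining stretches of the transcript, and the split between *Krt6a* and *Krt6b* is less certain than the other values. A comparison of one gene between conditions uses the same countable stretches in every library.

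*Ppp1r13l* had 320, 395 and 139 counts in iASPP KO and 697, 1100 and 472 in iASPP WT (batches 1, 2 and 3 throughout), lower in iASPP KO in each batch. The libraries held 20202517 to 25157117 counts on genes. Batch 3 stood apart in its fibroblast markers, whose summed level was 509 and 771 CPM (counts scaled to a library total of 1000000) in its iASPP-KO and iASPP-WT cultures, against 37.8 to 52.0 in the other 4. All 8 fibroblast markers were detected, and 2 of the 8 (*Col1a2* and *Col3a1*) were lower in iASPP KO. The test is described below, and it called 1.95% of all tested genes lower and 2.17% higher. *Col1a2* did not pass with any batch left out (log2 fold change −0.58, −0.46 and −0.59 without batches 1, 2 and 3). Melanocyte markers summed to 407 to 1133 in iASPP KO and 356 to 1170 in iASPP WT. Leukocyte markers summed to 59.8 to 88.0 and 43.9 to 72.9, and of the 6 tested 1, *Csf1r*, was higher in iASPP KO. Endothelial markers (3.21 to 12.3 and 3.75 to 7.72) and Merkel cell markers (0.722 to 3.43 and 0.875 to 3.27) were low, and no list had a marker at 0 in every library. Epidermal keratinocyte markers summed to 23133 to 28752 in iASPP KO and 24148 to 29387 in iASPP WT, and none of the 6 passed the test. *Krt5* and *Krt14* are among these 6, so this sum is not a measure of keratinocyte content apart from the keratin values below. In bulk RNA, fewer cells of a type and less RNA per cell cannot be told apart, and the part of these other cells in the keratin values was not tested.

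The 7 keratin genes together were a smaller part of the RNA in each iASPP-KO culture. Their counts made up 4.72%, 4.54% and 4.32% of all gene counts in iASPP KO and 5.49%, 5.24% and 6.01% in iASPP WT. The highest iASPP-KO culture lay below the lowest iASPP-WT culture, with means of 4.53 ± 0.205% and 5.58 ± 0.394% (SD, n = 3). Within batches the share in iASPP KO was 0.861, 0.866 and 0.718 times that in iASPP WT. At this depth counting error is small, with a 95% Wilson interval of 4.31% to 4.32% for the smallest share (counting error only). With the TMM scaling used for single genes below, the sum was 51649.5, 47965 and 40579 CPM in iASPP KO and 54899.7, 54041 and 54068 CPM in iASPP WT, also without overlap. No test was run on this sum, because the genes were chosen with earlier results of these data known.

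Most of the difference in the sum came from *Krt17*. Its share of all gene counts was 1.83%, 1.60% and 1.19% in iASPP KO and 2.38%, 2.28% and 2.48% in iASPP WT. The mean fell by 0.837 percentage points, the largest fall in points of any gene in the table. Only abundant genes can stand high in an order by points, which does not rank genes by fold change. *Krt6a* and *Krt14* came next in this order, with falls of 0.115 and 0.102 points that are not larger than the spread between cultures. Without *Krt17* the other 6 genes took 2.89%, 2.93% and 3.12% in iASPP KO and 3.11%, 2.96% and 3.53% in iASPP WT, and the groups overlapped. After TMM scaling these 6 genes summed to 31639, 31031 and 29348 CPM in iASPP KO and 31115, 30486 and 31795 CPM in iASPP WT. That sum was higher in iASPP KO in batches 1 and 2 and lower in batch 3, so the direction depended on the scaling. The wound-induced genes alone took 1.84% to 2.92% in iASPP KO and 3.31% to 3.49% in iASPP WT, which did not overlap, and the basal genes overlapped. That gap rested on *Krt17*: *Krt6a*, *Krt6b* and *Krt16* together took 1.08%, 1.07% and 0.643% in iASPP KO and 0.967%, 1.03% and 1.01% in iASPP WT, more in iASPP KO in batches 1 and 2 and less in batch 3. By its counts *Krt17* held rank 5, 5 and 6 among all genes in iASPP KO and rank 4, 4 and 2 in iASPP WT.

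**Figure D1:**
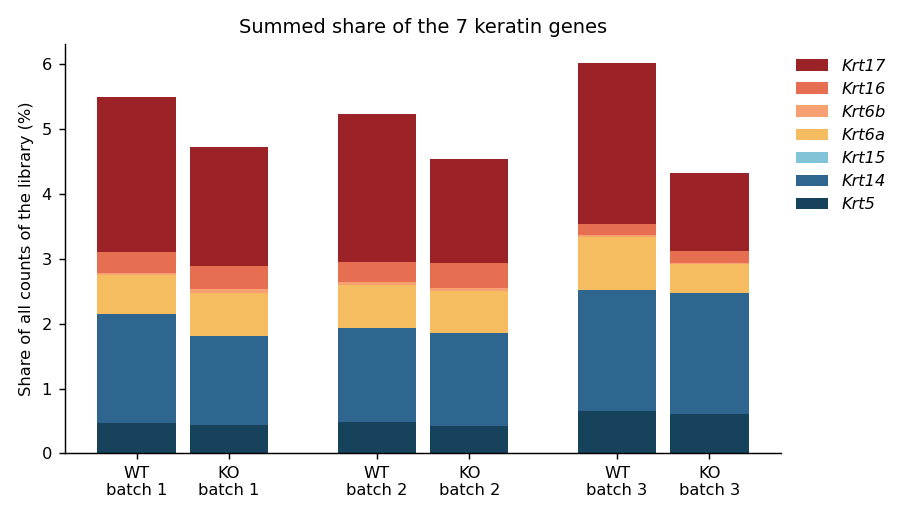
Share of all gene counts (percent) taken by the 7 keratin genes in each library, with the contribution of each gene stacked. The iASPP-KO bars reach 4.32% to 4.72% and the iASPP-WT bars 5.24% to 6.01%, and the segment of *Krt17* shrinks most.

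For single genes, levels are in CPM after TMM scaling, and edgeR's quasi-likelihood test compared the conditions with batch in the model. A gene was called at a Benjamini-Hochberg adjusted p under 0.05 over all 14916 tested genes. All 7 keratin genes passed the filter on low counts and were tested. Of them 1, *Krt17*, was lower in iASPP KO and 0 were higher, where 1.95% of all tested genes were lower and 2.17% higher (4.12% in either direction). DESeq2 also called *Krt17* lower and 0 higher, where it called 3.91% of all genes higher and 3.31% lower. At an unadjusted p under 0.05 there were 2 higher, *Krt15* and *Krt16*, and 1 lower, *Krt17*, where 8.66% of all tested genes were higher and 8.09% lower. Calls over all genes also moved with the libraries and genes used. They were 1.09% higher and 0.978% lower without batch 1, 1.14% and 0.768% without batch 2, 5.2% and 4.34% without batch 3, and 1.95% and 1.54% with no filter on low counts. *Krt15*, *Krt16* and *Krt17* are also the 3 of 7 whose values went in the same direction in all 3 batches, which 39.3% of all tested genes did. The median log2 fold change of the 7 was −0.02, against 0.006 over all tested genes.

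*Krt17*, the type I keratin of activated keratinocytes and of hair follicles, was lower in iASPP KO. Its level was 20010.2, 16934 and 11231 CPM in iASPP KO and 23785, 23555 and 22272 CPM in iASPP WT. It was the only one of the 7 genes in which every iASPP-KO culture lay below every iASPP-WT culture, as 5.46% of all tested genes did. None of the 7 lay above in every culture, as 5.26% did. The iASPP-WT cultures were close together and the iASPP-KO cultures spread widely (23204 ± 815 and 16058 ± 4455 CPM, SD, n = 3), with batch 3 the lowest. The log2 fold change was −0.57 (SE 0.14, edgeR Benjamini-Hochberg adjusted p = 0.047), a level 0.673 times that of iASPP WT (95% interval 0.545 to 0.831). Within batches the log2 difference was −0.25, −0.48 and −0.99, lower in 3 of 3. The adjusted p is close to the threshold: it was 0.15 without batch 2, 0.058 with robust dispersion, 0.108 with a filter of 10 counts in every library and 0.973 without batch in the model, in a range of 1.16e-06 to 0.973 over 11 alternatives. *Krt17* passed under 7 of these 11, among them DESeq2 with batch in the model (Benjamini-Hochberg adjusted p = 0.00209). Without batch 3 the log2 fold change was −0.36 and the call was kept. That fit called 4.34% of all genes lower, against 1.95% in the reported fit.

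*Krt16*, the type I partner of K6 in wounded epidermis, was higher in iASPP KO in each batch but did not pass the threshold. Its level was 3983, 4058 and 1732 CPM in iASPP KO and 3341, 3286 and 1582 CPM in iASPP WT. Each iASPP-KO culture lay above its own batch's iASPP-WT culture, while the groups overlapped because both cultures of batch 3 were low. The log2 fold change was 0.23 (SE 0.10, edgeR Benjamini-Hochberg adjusted p = 0.297), a fold of 1.17 with a 95% interval of 1.00 to 1.38. Within batches it was 0.25, 0.30 and 0.13 higher on the log2 scale.

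*Krt6a*, the more abundant of the K6 genes, had 7266, 6849 and 4136 CPM in iASPP KO and 6128, 6950 and 7302 CPM in iASPP WT. The groups overlapped, and batch 3 alone held a low iASPP-KO culture. The log2 fold change was −0.20 (SE 0.17, edgeR Benjamini-Hochberg adjusted p = 0.656). Within batches it was 0.25, −0.02 and −0.82, and without batch 3 it was 0.11.

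*Krt6b*, its close copy, had 615, 425 and 180 CPM in iASPP KO and 210, 351 and 227 CPM in iASPP WT. It was higher in iASPP KO in batches 1 and 2 and lower in batch 3, and the groups overlapped. The log2 fold change was 0.49 (SE 0.28, 95% interval −0.12 to 1.11, edgeR Benjamini-Hochberg adjusted p = 0.425). Within batches it was 1.55, 0.28 and −0.33. This value rested on single batches: it was −0.02 without batch 1, and 0.91 (adjusted p = 4.05e-11, past the threshold) without batch 3, in a range of adjusted p from 4.05e-11 to 0.988 over the 11 alternatives.

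**Figure D2:**
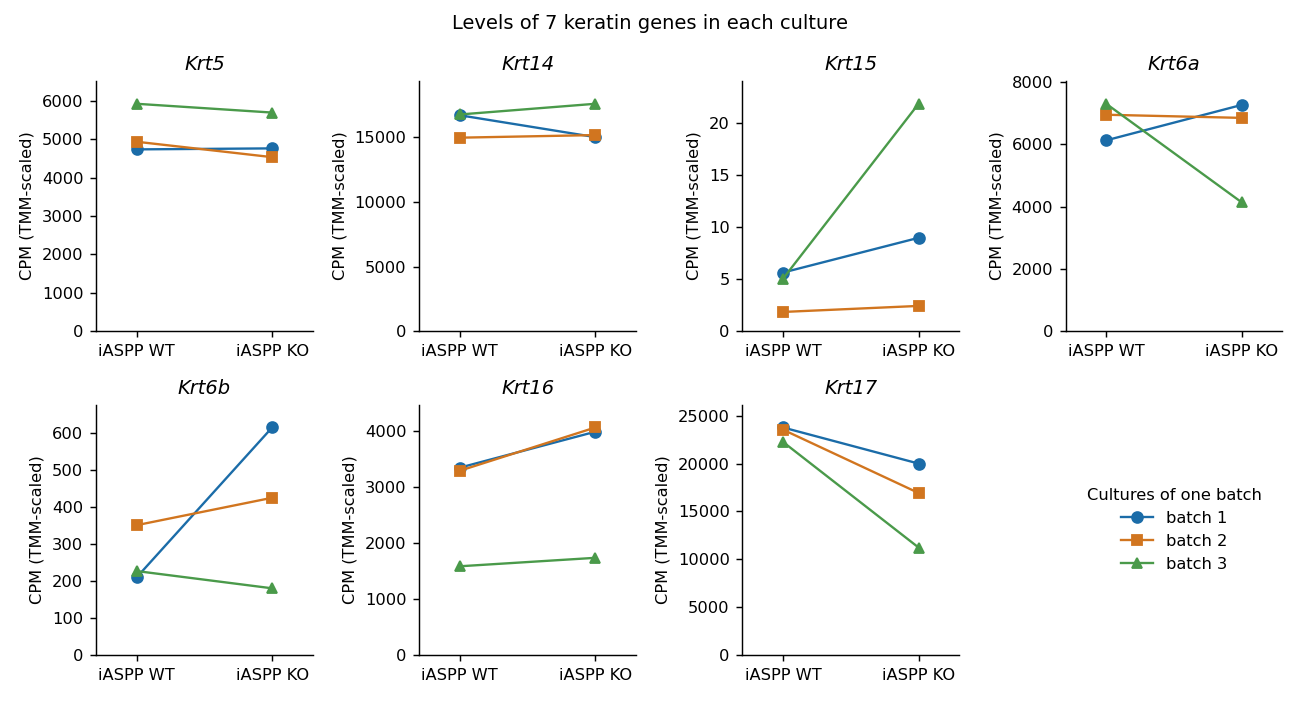
Level of each of the 7 keratin genes in CPM on linear axes that start at 0, with lines joining the iASPP-WT and iASPP-KO cultures of one batch. *Krt17* falls in all 3 batches, from 22272 to 23785 CPM in iASPP WT to 11231 to 20010.2 CPM in iASPP KO, while lines of the other genes cross, lie close to level or, for *Krt15* and *Krt16*, rise.

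The basal pair *Krt5* and *Krt14* was nearly level between conditions. *Krt5* had 4766, 4537 and 5699 CPM in iASPP KO and 4740, 4939 and 5929 CPM in iASPP WT. *Krt14* had 15000.6, 15159 and 17578 CPM in iASPP KO and 16691, 14958 and 16751.5 CPM in iASPP WT. For both genes the groups overlapped almost fully, and for *Krt5* the 2 cultures of batch 3 were the highest of the 6. The log2 fold changes were −0.06 for *Krt5* (SE 0.10, edgeR Benjamini-Hochberg adjusted p = 0.842) and −0.02 for *Krt14* (SE 0.10, edgeR Benjamini-Hochberg adjusted p = 0.947). The 95% intervals of the fold ran from 0.823 to 1.12 for *Krt5* and from 0.844 to 1.15 for *Krt14*, so changes of up to that size remain possible with 3 pairs.

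*Krt15*, the remaining basal type I keratin, was scarce in these cultures. It had 201, 54 and 513 counts in iASPP KO and 120, 45 and 113 counts in iASPP WT, which is 8.95, 2.42 and 21.8 CPM against 5.62, 1.85 and 5.03 CPM. Every iASPP-KO culture lay above its own batch's iASPP-WT culture, the groups overlapped through batch 2, and the iASPP-KO culture of batch 3 was the highest by far. The log2 fold change was 1.09 (SE 0.36, edgeR Benjamini-Hochberg adjusted p = 0.145), with 0.66, 0.38 and 2.10 within batches. Without a filter on low counts it passed the threshold (adjusted p = 0.016), in a range of 0.016 to 0.973 over 11 alternatives, and without batch 3 the log2 fold change was 0.54.

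**Figure D3:**
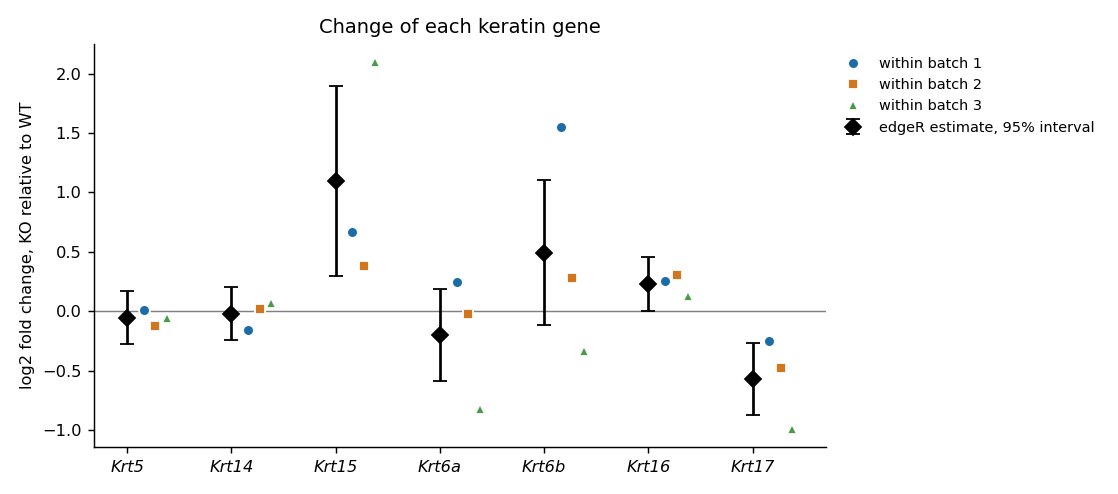
Log2 fold change of each gene in iASPP KO against iASPP WT, as the edgeR estimate and its 95% interval (diamond and bar) and the difference within each batch (small symbols), the intervals not being adjusted for the number of genes. The interval of *Krt17* lies below 0 and that of *Krt15* above it, *Krt5* and *Krt14* are close to 0 within narrow intervals, and *Krt15* and *Krt6b* have the widest spread between batches.

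Levels of different genes were compared per kilobase of the gene length in the count table. In iASPP WT the order was *Krt17* (14961 CPM per kb), *Krt14* (9177), *Krt6a* (2809), *Krt5* (2368), *Krt16* (1748), *Krt6b* (118) and *Krt15* (2.36). Cultures of *Krt6a* and *Krt5* overlapped (2534 to 3019.8 and 2157 to 2698.5), and the step from *Krt5* to *Krt16* was within the SD of *Krt16* (639, n = 3). The other steps were larger than the spread. In iASPP KO the mean order was the same, with 10354 for *Krt17* and 9052 for *Krt14*, a step within the spread of *Krt17* (SD 2872). In the iASPP-KO culture of batch 3, and in no other library, *Krt14* stood above *Krt17* (9999 and 7241 CPM per kb).

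Length alone understates genes that share sequence with others. Per 1000 windows of 42 bases found in no other gene, a scale chosen after the data were seen, the iASPP-WT means were 16622 CPM for *Krt17*, 12112 for *Krt14*, 6302 for *Krt6a*, 3138 for *Krt16*, 2667 for *Krt5*, 254 for *Krt6b* and 2.55 for *Krt15*. On this scale *Krt6a* stood clear of *Krt5*, and the means of *Krt16* and *Krt5* changed places while their cultures overlapped. In iASPP KO the means of *Krt14* (11947) and *Krt17* (11503, SD 3191) changed places too, through batch 3 alone: the ratio of *Krt17* to *Krt14* on this scale was 1.27, 1.07 and 0.610. On either scale the levels of *Krt6b* and *Krt15* were the lowest.

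Within a library, *Krt17* was lower in iASPP KO relative to the other wound-induced genes. The ratio of *Krt17* to *Krt16* per length was 4.21 to 6.54 in iASPP KO and 7.18 to 14.2 in iASPP WT, with no overlap. This ratio was not among those planned. In iASPP KO it was 0.706, 0.582 and 0.460 times that of the same batch's iASPP WT. The ratio of *Krt17* to *Krt6a* plus *Krt6b* was 3.61 to 4.04 in iASPP KO and 4.60 to 5.84 in iASPP WT, also apart. Against *Krt14* the ratio was lower in each batch (0.936, 0.709 and 0.480 times iASPP WT), but the groups overlapped narrowly, at 0.724 to 1.51 and 1.51 to 1.79.

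Of 11 ratios computed, the other 9 overlapped between conditions. *Krt14* to *Krt5*, the basal pair, was 3.85 to 4.18 in iASPP KO and 3.53 to 4.40 in iASPP WT. *Krt16* to *Krt14* was higher in iASPP KO within each batch (1.33, 1.22 and 1.04 times), and so was *Krt6b* to *Krt6a* (2.48, 1.23 and 1.40 times). *Krt17* to *Krt5* was lower within each batch (0.837, 0.783 and 0.525 times), and so was type I to type II (0.781, 0.890 and 0.979 times), the latter not in batch 3 per unshared window (3.35 in iASPP KO and 3.02 in iASPP WT). *Krt16* to *Krt14* was low in both cultures of batch 3. Planned were *Krt14* to *Krt5*, *Krt16* and *Krt17* each to *Krt6a* plus *Krt6b*, and wound-induced to basal genes, and the other ratios were not. No test was run on the ratios, which use the same counts as the fold changes above. How often ratios between other genes lie apart was not counted.

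**Figure D4:**
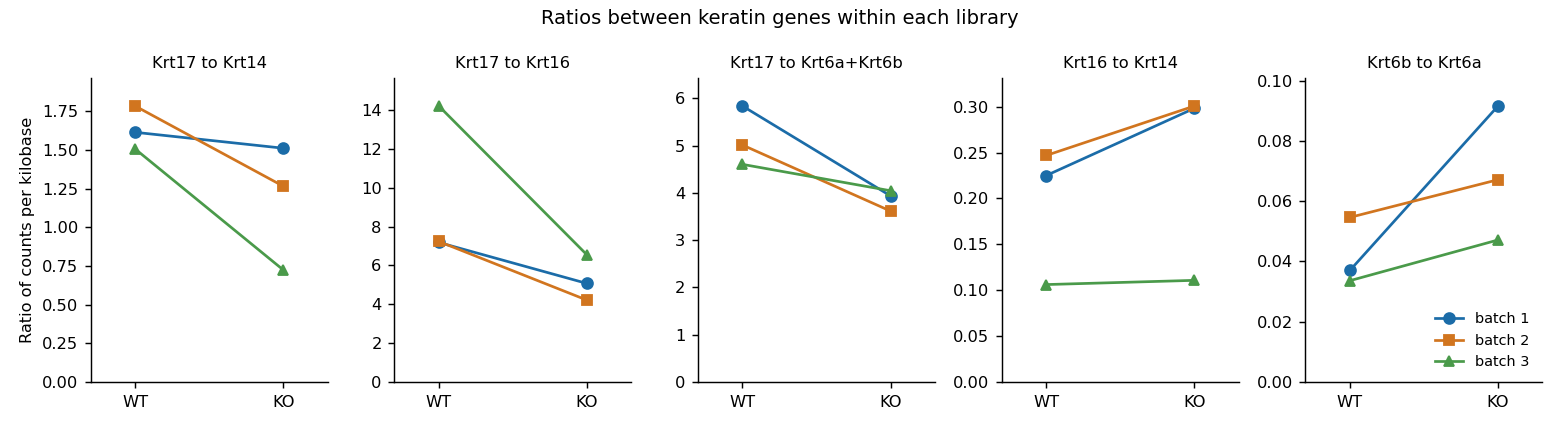
Ratios between keratin genes within each library, in counts per kilobase on linear axes from 0, with lines joining the cultures of one batch. The ratios of *Krt17* to *Krt16* (4.21 to 6.54 in iASPP KO, 7.18 to 14.2 in iASPP WT) and to *Krt6a* plus *Krt6b* (3.61 to 4.04 and 4.60 to 5.84) lie lower in every iASPP-KO culture.

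The genes whose profile over the 6 libraries was most like each keratin were found by the root-mean-square distance between centred log2 CPM values, among 8774 or more tested genes with a mean of at least 10 CPM. For *Krt17* they were *Fam83b* (distance 0.065) and *Znhit6* (0.080). For *Krt16* they were *B4galnt3* (0.037) and *Ppfibp2* (0.074), and for *Krt6a* *Gm20219* and *Yae1d1* (both 0.073). For *Krt5* they were *Hnrnpk* (0.030) and *Psmd6* (0.032), and for *Krt14* *Tcf20* (0.022) and *Pter* (0.036). For *Krt6b*, *Sema4d* (0.213) and *Gstp1* (0.216) were nearest, and for *Krt15*, *Snord23* (0.382) and *Gm25636* (0.386). This distance grows with a gene's own variation between libraries. The highest level over the lowest was 3.415 for *Krt6b* and 11.81 for *Krt15*, against 1.307 for *Krt5* and 1.175 for *Krt14*. A small distance for a nearly level gene therefore does not mark a particular likeness. None of the 7 was among the 2 nearest genes of another.

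Genes that accompany these keratins in basal and wound-edge cells were described by counts and medians from the same fit. Of 20 basal layer genes (integrins, laminin subunits, p63 and others) 0 were higher and 0 lower by edgeR, and their median was −0.14 (log2 fold change). The 2 most abundant, *Col17a1* (collagen XVII of hemidesmosomes, −0.11, SE 0.16) and *Dst* (dystonin, which ties keratin filaments to hemidesmosomes, −0.18, SE 0.13), were near that median. At an unadjusted p under 0.05 there were 1 higher and 5 lower (8.66% and 8.09% of all tested genes), and DESeq2 called 1 and 2. Without batch 3 the counts were 1 higher and 7 lower, in a fit that called 5.2% of all genes higher and 4.34% lower, with *Col17a1* at −0.39 and *Dst* at −0.34, both past the threshold. Of 14 filament anchoring genes 1 was higher, *Ppl* (periplakin, 0.52, SE 0.11), and 0 were lower (2 at an unadjusted p under 0.05, as were 8.09% of all tested genes, and 0 by DESeq2). *Ppl* did not pass without batch 1 (0.48) or batch 2 (0.46), and without batch 3 the counts were 2 higher and 3 lower. The most abundant of the list, *Dsp*, the desmoplakin that anchors keratin filaments at desmosomes, stood at 0.17 (SE 0.10), and *Dsc3*, a desmosomal cadherin, at −0.18 (SE 0.12).

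Of 23 tested genes of activated keratinocytes, 6 were higher and 2 lower in iASPP KO, with a median of 0.39. Over all tested genes 2.17% were higher and 1.95% lower in this fit. The higher ones were *S100a8* (1.98, SE 0.17), *S100a9* (1.93, SE 0.18), which encode the subunits of calprotectin, *Mmp10* (stromelysin 2, 1.49, SE 0.25), *Ereg* (epiregulin, 1.00, SE 0.19), *Il1a* and *Sprr1b*. The lower ones were *Tnc* (tenascin C) and *Fscn1* (fascin). The abundant *Plau* (urokinase, 0.10, SE 0.11) and *Ptgs2* (cyclooxygenase 2, 0.03, SE 0.12) did not pass the threshold. With batch 1, 2 or 3 left out, 6, 4 and 8 were higher and 0, 0 and 2 lower. Those fits called 1.09%, 1.14% and 5.2% of all genes higher and 0.978%, 0.768% and 4.34% lower. *S100a8* and *S100a9* were past the threshold each time, *Ereg* was not without batch 1 (0.74) or batch 2 (0.98), and *Mmp10* was not without batch 2 (1.38). The list held none of the 7 keratin genes, and *Krt17*, lower at −0.57, had the opposite sign to its median.

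Among 16 regulators that have been linked to wound keratins, 2 were higher, *Cebpb* (0.54, SE 0.12) and *Junb*, a subunit of AP1 (0.50, SE 0.11). Of the 16, 1 was lower, *Egfr*, the epidermal growth factor receptor (−0.48, SE 0.11). Over all tested genes 2.17% were higher and 1.95% lower. Without batch 1 or without batch 2 none of the 3 passed, at 0.48 and 0.62 for *Cebpb*, 0.45 and 0.54 for *Junb* and −0.54 and −0.43 for *Egfr*, and without batch 3 the counts were 5 higher and 1 lower, where 5.2% and 4.34% of all genes were called.

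Of all 54 keratin genes, 26 were tested, with a median of 0.23. Of these 2 were higher and 3 lower, where 2.17% and 1.95% of all tested genes were. At an unadjusted p under 0.05 there were 8 higher and 3 lower, where 8.66% and 8.09% of all tested genes were. Without batch 3 the higher calls numbered 6, where 5.2% of all genes were higher. With no filter on low counts they numbered 8, where 1.95% of all genes were higher. Beside *Krt17*, the suprabasal keratins *Krt10* (−1.31, SE 0.29) and *Krt77* (−1.33, SE 0.32) were lower, and *Krt78* (0.63, SE 0.12) and *Krt23* (1.34, SE 0.21) were higher. *Krt1*, the partner of *Krt10* and the most abundant of the 8 suprabasal keratins, stood at −0.31 (SE 0.15), and *Krt80* at −0.01 (SE 0.19). *Krt10* did not pass by DESeq2 (−1.26, adjusted p = 0.146) or with edgeR's robust dispersion (adjusted p = 0.159), in a range of 2.97e-30 to 0.973 over its alternatives. Without batch 2 none of the keratin genes passed in either direction. *Krt10* (−0.90), *Krt77* (−1.61) and *Krt78* (0.55) did not pass without batch 1 either, nor *Krt77* without batch 3 (−1.02), whereas *Krt1* passed without batch 3 (−0.48). The 4 tested simple-epithelium keratins had a median of 0.75 and none passed (2 higher at an unadjusted p under 0.05, as were 8.66% of all tested genes, and 1 by DESeq2), with *Krt18* at 0.93 (SE 0.29) and *Krt7* at 0.56 (SE 0.25). *Krt18* passed without batch 1 (1.41) and without batch 3 (0.62). Of the hair follicle and nail keratins 3 were tested and none passed, adjusted or unadjusted, *Krt75* at −0.07 (SE 1.06) and *Krt32* at −1.04 (SE 1.19) among them.

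**Figure D5:**
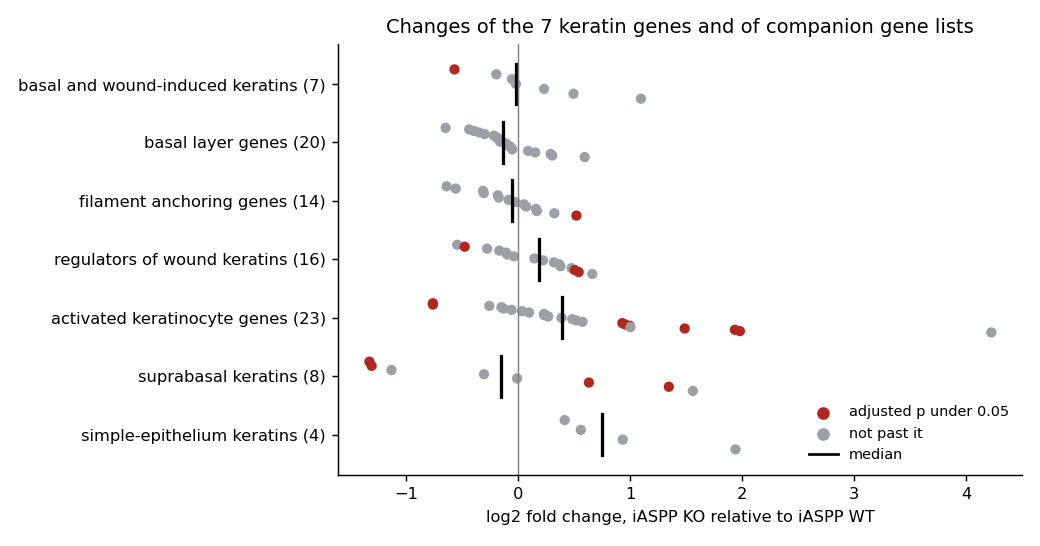
Log2 fold changes (iASPP KO against iASPP WT) of the tested genes of each list, with the number of genes in brackets, genes past an adjusted p of 0.05 in red, vertical offsets only to separate points, and the median of each list marked (hair follicle and nail keratins not drawn). The activated keratinocyte genes lie mostly above 0 (median 0.39) while the 7 keratin genes have a median of −0.02.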

How the data were processed

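Counts of reads per gene name were deposited by the authors for 6 libraries, without normalization. Adapters had been trimmed by the authors (cutadapt), reads aligned to GRCm38 (STAR, GENCODE vM25) and exonic reads counted by strand with featureCounts 2.0.0. The gene length deposited beside the counts served only for levels per kilobase. The authors' DESeq2 table (base mean, log2 fold change, SE and p-values) was not used, and neither was the p63 ChIP-seq.

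The test was edgeR 4.0.16 under R 4.3.3 (filterByExpr, TMM, glmQLFit and glmQLFTest with batch and condition, Benjamini-Hochberg over 14916 genes). The SE was taken as the size of the log2 fold change over the root of the F statistic. For the p-values and intervals of the keratin genes, 8.17 of the 10.17 degrees of freedom were a prior drawn from all tested genes. Within-batch differences used log2 CPM (prior count 2). Replicate numbers pair the cultures because each batch of cells was divided between the conditions, as the labels state. After subtraction of the condition means, same-batch cultures correlated at 0.302, 0.368 and 0.568. The iASPP-KO and iASPP-WT cultures of different batches correlated at −0.427 to 0.179. These values depend on each other, because deviations from a shared mean offset each other. Cultures of one condition differed by far more than sampling noise (chi-square per gene 39.7 to 173). Libraries held 20202517 to 25157117 counts, and intervals on shares cover counting error only, as PCR copies were not told apart. Transcript sequences came from GENCODE vM21 on the same build.

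The keratin genes and all gene lists were chosen with earlier results of these data known. Named are the 7 keratin genes, *Ppp1r13l*, the members of each list past the threshold (up to 4 by size) and its 2 most abundant, and the 2 genes most like each keratin. *Il1a*, *Sprr1b*, *Tnc*, *Fscn1*, *Col3a1* and *Csf1r* were named after their values were seen. Alternatives were no batch term, DESeq2 1.42.0, other scalings and filters, robust dispersion and each batch left out. Only the edgeR and DESeq2 fits were tried on simulated data, with changes larger than that of *Krt17*. Shares, ratios, shared windows and profile likeness were not tried in this way. Figures were made with matplotlib 3.10.9.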

Additional observations from a re-analysis of the deposited data

How the results depend on the processing

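*Krt17* stayed lower in iASPP KO under all 11 alternatives and passed the threshold under 7, and the cause of the changes was not tested. The count of lower keratin genes went from 1 to 0 with at least 10 counts in every library (*Krt17* −0.56) and with robust dispersion (−0.57). With each batch left out in turn it ran from 0 to 1, with *Krt17* at −0.73 to −0.36 (without batch 2 the call was lost, at −0.61). The count of higher keratin genes was 2 with no filter on low counts (*Krt15* 1.10 and *Krt6b* 0.50) and 0 to 1 with each batch left out. Signs turned with a batch left out for *Krt14* (−0.07 to 0.05), *Krt6a* (−0.42 to 0.11) and *Krt6b* (−0.02 to 0.91), as they did for *Col17a1* (−0.39 to 0.08), *Krt75* (−1.42 to 1.24; 0.30 without batch 1), *Krt80* (−0.20 to 0.33) and *Ptgs2* (−0.08 to 0.15). With library totals in place of TMM, which moved the median of all genes to −0.07, *Ptgs2* was at −0.04 and *Piezo2* at −0.03.

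Without the replicate block (condition alone in the model), which ignores that batches were divided between the conditions, *Krt17* was at −0.53, *Krt80* at 0.16, and 0 keratin genes and 0 of all genes passed by edgeR (360 higher and 331 lower at an unadjusted p under 0.05). DESeq2 with the block called 480 and 407. Over all genes, 323 were higher and 291 lower in the reported fit, 624 and 491 with no filter on low counts, 295 and 455 with library totals (39.3% of calls higher, against 52.6%), and 169 to 793 and 117 to 662 with each batch left out.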
